A study of Homo sapiens with 4 samples.

Results

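Nucleolin and 9 mRNAs for other nucleolar and small nucleolar ribonucleoprotein (snoRNP) proteins were examined in RNA recovered with an antibody against PHGDH or with a control IgG antibody. NCL was chosen by its measured values, since it was lower in the anti-PHGDH libraries than in IgG replicate 1, and NPM1, NOLC1, FBL, NOP56, NOP58, DKC1, NHP2, NOP10 and GAR1 were added because their proteins work beside nucleolin. All 10 symbols were found among the 44715 in the tables, and 9 of them reached the level at which genes were tested (a minimum of 5 CPM in 2 libraries or more, CPM being a gene's reads scaled to the same library total), FBL being the exception. The antibody contrast used to pick NCL is given for NCL as a description only. What that choice did not fix is the level of NCL in IgG replicate 2 and the values of the other 9 genes. The ratio of NCL to IgG replicate 2 reuses the anti-PHGDH values by which it was chosen.

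The nucleolus is where ribosomal RNA is transcribed, modified, cut and packed with ribosomal proteins. Box C/D snoRNPs, built on NOP56, NOP58 and the methyltransferase fibrillarin (FBL), guide the methylation of ribose in ribosomal RNA, and box H/ACA snoRNPs, built on the pseudouridine synthase dyskerin (DKC1) with NHP2, NOP10 and GAR1, guide the conversion of uridine to pseudouridine. Nucleolin (NCL), nucleophosmin (NPM1) and NOLC1 are abundant nucleolar phosphoproteins that bind RNA or act as chaperones for ribosome or snoRNP assembly.

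The cells were HEK293T, an established human embryonic kidney line, which the labels give no genetic change or drug treatment, and the RNA was recovered under native conditions. The 4 libraries were anti-PHGDH replicates 1 and 2 and IgG replicates 1 and 2, made by low-input cDNA amplification from the precipitated RNA. Values of a pair of libraries are given in the order replicate 1, replicate 2. The submitters call them biological replicates, with no further statement of what was repeated, so the spread between them may be partly technical. Input RNA was not analysed here, so a level is a share of the RNA recovered in 1 precipitate. A lower share cannot be told apart from more recovery of other RNAs.

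The libraries held 1216477 to 3875746 reads assigned to genes. IgG replicate 1 was the deepest and stood apart from the rest, with 4148 genes above 0 against 14518 to 16767 in the other 3 libraries. The mitochondrial genome gave 28.8% of reads in anti-PHGDH replicate 1 and 3.37% to 8.69% elsewhere. PHGDH, the mRNA of the targeted protein, stood at 6550.2 and 1531 CPM in the anti-PHGDH pair and at 0 and 461 CPM in the IgG pair. Of the marker genes of HEK293T, the neurofilament genes NEFM and NEFL were above 0 in every library, while INA, LIN28B and PAX2 were at 0 in IgG replicate 1. The 10 markers of fibroblasts, blood, liver and endothelium summed to 0 CPM in IgG replicate 1 and to 12.5 to 14.8 CPM in the other 3 libraries, and PTPRC, HBB, PECAM1 and VWF were at 0 in all 4. Fold changes that include IgG replicate 1 are therefore also given without it.

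NCL encodes nucleolin, which binds pre-ribosomal RNA and chromatin of the ribosomal RNA genes. The gene lies at chr2:231453531-231464484 on the minus strand (hg38, RefSeq annotation of GRCh38.p14). NCL stood at 177 and 653 CPM in the anti-PHGDH pair (597 and 794 reads) and at 4209 and 634 CPM in the IgG pair (16313 and 1001 reads). The means were 415 ± 336 CPM for the former and 2421 ± 2528 CPM for the latter (SD, n = 2). IgG replicate 1 is high, anti-PHGDH replicate 1 is low, and the groups overlap, because anti-PHGDH replicate 2 lies above IgG replicate 2. The ratio of anti-PHGDH replicate 2 to IgG replicate 2 was 1.03, with a 95% counting interval of 0.937 to 1.13. That of anti-PHGDH replicate 1 to IgG replicate 2 was 0.280 (0.252 to 0.310). Against IgG replicate 2 the lower level of NCL was thus seen in 1 of the 2 anti-PHGDH libraries. These intervals are exact for the reads counted. They cover counting error between 2 libraries only, and reads that are PCR copies are not independent molecules.

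**Figure D1:**
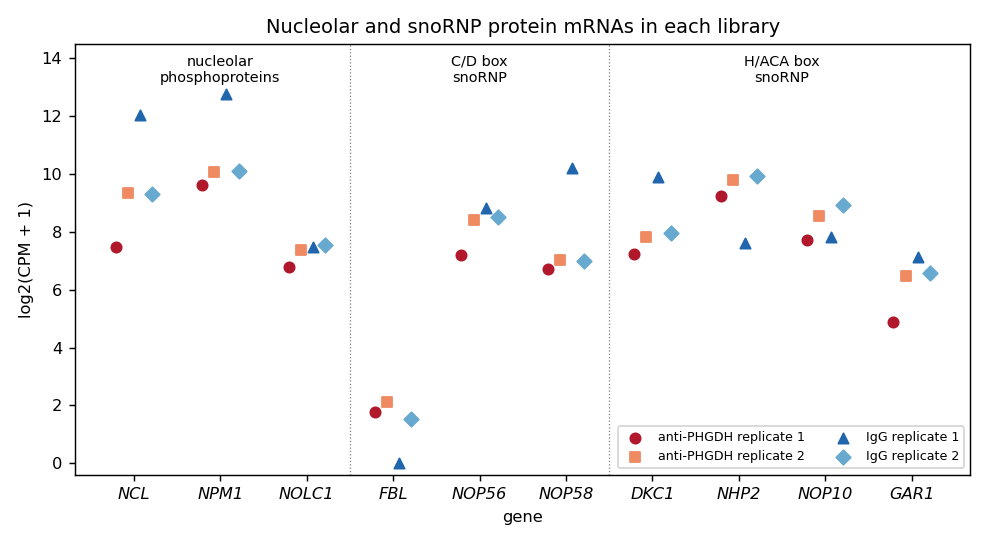
Levels of the 10 mRNAs on the log2(CPM + 1) scale (vertical axis) by gene (horizontal axis), with 1 symbol per library and the genes set out by role. IgG replicate 1 is at the top for 6 genes, NHP2 is lowest there, and FBL lies between 0 and 3.29 CPM in every library.

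NPM1 encodes nucleophosmin, a nucleolar chaperone for histones and ribosomal proteins (chr5:171387116-171410900). It stood at 788 and 1085 CPM in the anti-PHGDH pair (936.4 ± 210.4, SD, n = 2) and at 6960.2 and 1097 CPM in the IgG pair (4029 ± 4146). IgG replicate 1 is the high library again, at 6.34 times IgG replicate 2 (6.04 to 6.66). The groups do not overlap for NPM1, but anti-PHGDH replicate 2 lies only just under IgG replicate 2, with a ratio of 0.989 (0.920 to 1.06). NOLC1, also known as NOPP140, is a phosphoprotein that shuttles between nucleolus and cytoplasm and binds both classes of snoRNP (chr10:102152389-102163870). NOLC1 stood at 109 and 166 CPM in the anti-PHGDH pair (137.5 ± 40.3, SD, n = 2) and at 178 and 185 CPM in the IgG pair (181.5 ± 4.84). Its IgG libraries differed little, by a ratio of 0.963 (0.839 to 1.11), so NOLC1 does not share the high value of NCL and NPM1 in IgG replicate 1.

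Promoters are shown for the phosphoprotein genes NCL and NPM1 and, further on, for 2 H/ACA genes. The first pair was high and the second pair low in IgG replicate 1. RefSeq promoter windows (GRCh38.p14), from 250 bases before to 50 bases after the start, were found for 8 of the 10 genes, in 10 windows, since GAR1 and NPM1 have 2 starts each. The 200 bases just before the start are printed 5′ to 3′ on the gene's strand, with capitals marking 3 motifs searched on both strands. The CCAAT box was searched as the letters CCAAT, and reads ATTGG when it lies on the other strand. The letters of the TATA box were taken as TATAA. For the E-box they were CACGTG, which reads the same on both strands. No motif here contains another. NCL lies on the minus strand at chr2:231464485-231464684, and NPM1 on the plus strand at chr5:171386916-171387115 for its earlier and chr5:171387649-171387848 for its later listed start.
NCL: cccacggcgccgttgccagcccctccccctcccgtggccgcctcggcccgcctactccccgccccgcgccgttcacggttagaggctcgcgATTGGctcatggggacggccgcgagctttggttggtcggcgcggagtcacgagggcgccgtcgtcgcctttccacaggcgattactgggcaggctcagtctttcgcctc
NPM1 earlier start: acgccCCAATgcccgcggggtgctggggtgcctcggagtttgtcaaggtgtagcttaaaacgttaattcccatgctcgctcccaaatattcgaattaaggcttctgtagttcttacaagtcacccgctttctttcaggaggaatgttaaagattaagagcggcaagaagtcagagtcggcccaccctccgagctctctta
NPM1 later start: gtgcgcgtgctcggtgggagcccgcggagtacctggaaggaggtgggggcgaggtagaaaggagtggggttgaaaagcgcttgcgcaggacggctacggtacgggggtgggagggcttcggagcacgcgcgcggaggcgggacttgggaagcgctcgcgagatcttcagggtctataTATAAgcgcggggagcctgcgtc
The NCL stretch and that of the earlier NPM1 start hold 1 CCAAT box each, and that of the later NPM1 start holds 1 TATA box.

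FBL encodes fibrillarin, the methyltransferase of box C/D snoRNPs (chr19:39834458-39846379). FBL was listed at 2.38 and 3.29 CPM in the anti-PHGDH pair and at 0 and 1.90 CPM in the IgG pair. These values are 8, 4, 0 and 3 reads, close to the limit of 3 reads that a count of 0 allows, and no fold is given. Why FBL was listed near 0 was not tested. Its partners in the same particle were well covered. NOP56, a core protein that bridges the snoRNA and fibrillarin (chr20:2652632-2658393), stood at 145 and 336 CPM in the anti-PHGDH pair (240.5 ± 135.4) and at 448 and 362 CPM in the IgG pair (404.8 ± 61.3). The groups do not overlap, and anti-PHGDH replicate 1 is the low library, at 0.430 times anti-PHGDH replicate 2 (0.377 to 0.492). NOP58, the other core protein (chr2:202265763-202303661), stood at 105 and 129 CPM in the anti-PHGDH pair (117 ± 16.9) and at 1189 and 126 CPM in the IgG pair (658 ± 752). IgG replicate 1 alone is high for NOP58, at 9.44 times IgG replicate 2 (8.19 to 10.9), and the other 3 libraries lie between 105 and 129 CPM. The groups overlap, and the ratio of anti-PHGDH replicate 2 to IgG replicate 2 was 1.02 (0.826 to 1.27).

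Among the H/ACA genes, DKC1 was high in IgG replicate 1, as NPM1 was, and NHP2 was low there. Against IgG replicate 2 the anti-PHGDH ratios were 0.609 and 0.901 for DKC1 and 0.621 and 0.917 for NHP2. DKC1, the pseudouridine synthase (chrX:154762864-154777689), stood at 151 and 224 CPM in the anti-PHGDH pair (187 ± 51.2) and at 961 and 248 CPM in the IgG pair (605 ± 504). IgG replicate 1 was 3.87 times IgG replicate 2 (3.49 to 4.31), and the groups do not overlap. NHP2, a small RNA-binding subunit of the same particle (chr5:178149463-178153885), stood at 603 and 890 CPM in the anti-PHGDH pair (747 ± 202.8) and at 193 and 971 CPM in the IgG pair (582 ± 550.1). IgG replicate 1 is its lowest library, at 0.199 times IgG replicate 2 (0.182 to 0.217), and the groups overlap. NOP10, the smallest subunit (chr15:34341719-34343136), stood at 209 and 373 CPM in the anti-PHGDH pair (291 ± 116.0) and at 227 and 488 CPM in the IgG pair (357 ± 185). Both replicates numbered 1 are low for NOP10 and the groups overlap. GAR1, a glycine- and arginine-rich subunit (chr4:109815510-109824737), stood at 28.8 and 87.1 CPM in the anti-PHGDH pair (58.0 ± 41.2) and at 141 and 95.6 CPM in the IgG pair (118 ± 31.8). The groups do not overlap for GAR1, and anti-PHGDH replicate 1 is low, at 0.331 times anti-PHGDH replicate 2 (0.248 to 0.440).

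The promoters of NHP2 (minus strand, chr5:178153886-178154085) and NOP10 (minus strand, chr15:34343137-34343336), the 2 genes that were lower in IgG replicate 1 than in IgG replicate 2 by more than 2-fold, are marked as above.
NHP2: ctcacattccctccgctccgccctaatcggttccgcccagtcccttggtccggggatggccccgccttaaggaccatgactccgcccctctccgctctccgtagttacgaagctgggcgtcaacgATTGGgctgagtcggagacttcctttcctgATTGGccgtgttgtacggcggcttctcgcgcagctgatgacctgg
NOP10: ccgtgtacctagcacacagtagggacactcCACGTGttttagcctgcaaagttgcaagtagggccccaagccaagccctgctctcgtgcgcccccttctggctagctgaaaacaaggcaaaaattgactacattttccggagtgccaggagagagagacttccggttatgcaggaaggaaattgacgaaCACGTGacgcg
The NHP2 stretch holds 2 CCAAT boxes and the NOP10 stretch holds 2 E-boxes. Over the whole windows, a CCAAT box was found in 7 of the 10 (for every gene of the 8 but DKC1) and in 34.6% of all 35116 RefSeq windows. An E-box was found in 3 of 10 (FBL, GAR1 and NOP10) and in 7.26% of all windows, and a TATA box in 3 of 10 (GAR1 and NPM1) and in 20.4%. These matches describe letters in the windows and show no binding.

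The high values in IgG replicate 1 were compared with the same count over all genes. IgG replicate 1 was at least 2 times the highest of the other 3 libraries for NPM1, NOP58 and DKC1, 3 of the 8 tested genes other than NCL (37.5%), against 12.3% of the 9524 genes tested. NCL was as well, but was chosen by these values. IgG replicate 1 was above 0 for 8 of 8, against 38.1% of all genes tested. Among genes above 0 in IgG replicate 1 the share with a 2-fold excess there was 32.2%. Both shares were higher among abundant genes. The lowest mean over the 4 libraries among the 9 was that of GAR1, 88.0 CPM, and of the 1784 genes tested with a mean at least as high, 85.7% were above 0 in IgG replicate 1 and 39.4% were at least 2 times as high there as in any other library. That mean includes IgG replicate 1, so a high value there helps a gene pass the bound and can raise both shares. The 3 of 8 is close to the 39.4%, and to the 32.2% that does not use the bound. A high value in IgG replicate 1 is thus not read as a result about the nucleolar genes. The summed level of all 10 was 14507 CPM in IgG replicate 1, against 2319 to 4208 CPM in the other 3 libraries. NCL and NPM1 made up 77.0% of that sum in IgG replicate 1 and 41.1% to 44.0% in the other libraries. The sum and this share include NCL, which was chosen by its values. The genes other than NCL and NPM1 summed to 3337 CPM in IgG replicate 1 and to 1354 to 2477 CPM in the other libraries.

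Against IgG replicate 2, which the choice of NCL did not use (it did use the anti-PHGDH values of NCL), the differences were small in anti-PHGDH replicate 2 and larger in anti-PHGDH replicate 1. In anti-PHGDH replicate 2 the ratio ran from 0.765 (NOP10) to 1.03 (NCL), with a median of 0.917 over the 9 genes. The counting interval held 1 for 7 of the 9, and lay below 1 for NOP10 (0.679 to 0.860) and NHP2 (0.847 to 0.991). With CPM recomputed without mitochondrial genes only NOP10 stayed below 1, and the interval of NHP2 was 0.897 to 1.05. Anti-PHGDH replicate 2 was below IgG replicate 2 for 7 of 9 genes, all but NCL and NOP58, against 36.9% of all genes tested. In anti-PHGDH replicate 1 the ratio ran from 0.280 (NCL) to 0.835 (NOP58), with a median of 0.590, and the interval lay below 1 for all 9. On the scale without mitochondrial genes it lay below 1 for 7 and held 1 for NPM1 (0.917 to 1.04) and NOP58 (0.950 to 1.35). Intervals were not counted over all genes, so these counts are not results about the 9. For the 9 genes, the median log2(CPM + 1) difference from IgG replicate 2 was -0.76 in anti-PHGDH replicate 1 and -0.13 in anti-PHGDH replicate 2. Without NCL it was -0.73 and -0.13, and over all genes tested 0.16 and 0.18. Among genes above 0 in IgG replicate 1, as all 9 were, it was -0.17 and 0.05.

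**Figure D2:**
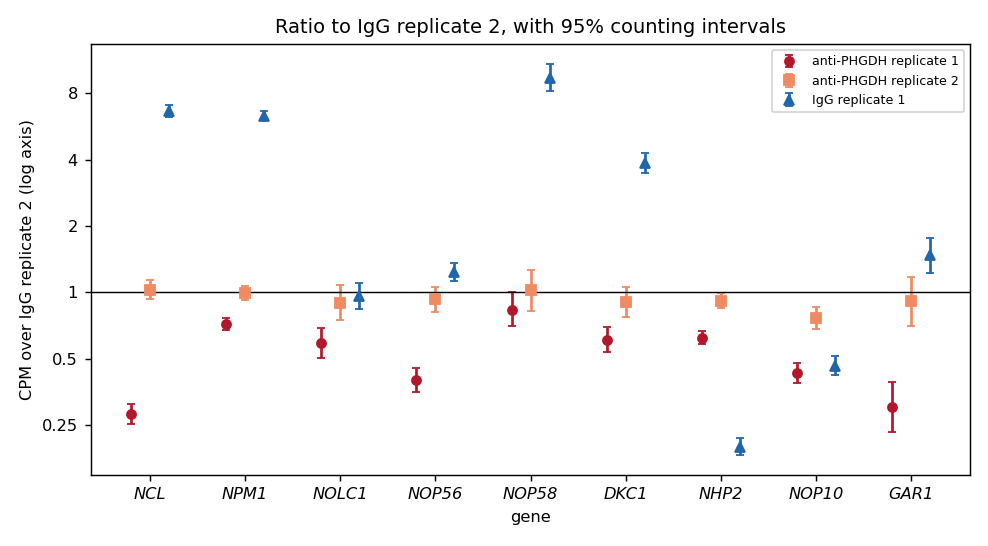
CPM in each of the other 3 libraries divided by CPM in IgG replicate 2 (vertical log axis) for the 9 tested genes (horizontal axis), with bars for the 95% counting interval. The anti-PHGDH replicate 2 values lie between 0.765 and 1.03, those of anti-PHGDH replicate 1 between 0.280 and 0.835, and those of IgG replicate 1 between 0.199 and 9.44.

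The 2 anti-PHGDH libraries differed from each other in these genes in 1 direction. Anti-PHGDH replicate 1 was below replicate 2 for NCL and for 8 of the 8 other tested genes, against 51.3% of all genes tested, with ratios from 0.272 (NCL) to 0.815 (NOP58). The counting intervals of all 9 lay below 1, a count that was not made over all genes. On the log2(CPM + 1) scale, the median difference of anti-PHGDH replicate 1 minus replicate 2 was -0.58 for the 8. It was -0.03 for all genes tested and -0.28 for those above 0 in IgG replicate 1. The mitochondrial share differed between the 2 anti-PHGDH libraries. With CPM recomputed without mitochondrial genes, 7 of the 8 remained below (all but NOP58), against 36.9% of genes. The ratios then ran from 0.349 (NCL) to 1.05 (NOP58). On that scale the interval lay below 1 for 6 of the 9 and held 1 for NOP58, DKC1 (0.747 to 1.01) and NOLC1 (0.707 to 1.01). The ratio of NCL between replicates of the same antibody was thus further from 1 than that between anti-PHGDH replicate 2 and IgG replicate 2.

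Non-overlap of the antibody groups was counted next. Both anti-PHGDH libraries lay below both IgG libraries for 5 of the 9 tested genes, NPM1, NOLC1, NOP56, DKC1 and GAR1, against 6.16% of all genes tested. The share was 16.2% among genes above 0 in IgG replicate 1, without which the condition cannot be met, and 21.2% among genes with a mean at least that of GAR1. That mean includes IgG replicate 1, so a high value there helps a gene into that set. No gene of the 9 had both anti-PHGDH libraries above both IgG libraries, against 38.3% of all genes tested. That condition is easier to meet at 0 in IgG replicate 1, where 61.9% of all genes tested stood and none of the 9 did. The share among genes above 0 there was not counted. NCL, the gene that led to the list, was not among the 5. Without IgG replicate 1 the count was 7 of 9 (the 5 with NHP2 and NOP10), against 25.1% of all genes and 42.7% of genes with a mean at least that of GAR1. With CPM recomputed without mitochondrial genes the count against IgG replicate 2 was 6 of 9, against 16.6%, and NPM1 dropped out. For DKC1, NOP56, NOLC1 and GAR1 the gap between anti-PHGDH replicate 2 and IgG replicate 2 was within the counting interval, as it was for NPM1. For NOLC1 the lower IgG library was replicate 1, to which anti-PHGDH replicate 2 had a ratio of 0.933 (0.793 to 1.09). These 5 orders thus rest on small differences between anti-PHGDH replicate 2 and the lower IgG library.

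The fit over all genes with limma, on log2(CPM + 1), called no gene of the 9. Over the 9524 genes, 1 (0.0105%) was called higher with anti-PHGDH at an adjusted p under 0.05, which was PHGDH, and 0 (0.0%) were called lower. At an unadjusted p under 0.05, limma had 261 genes higher and 0 lower, edgeR 21 and 162, and DESeq2 89 and 149, and neither count model called a gene after adjustment. Of the 8 genes other than NCL, 0 passed an unadjusted p under 0.05 in limma, in edgeR on the recovered reads or in DESeq2. Leaving out NCL, the log2 fold change was negative for 7 of 8 genes (all but NHP2), against 19.3% of all genes tested and 50.5% of those above 0 in IgG replicate 1. The median was -1.03 for the 8, 1.92 for all genes and -0.03 for those above 0 in IgG replicate 1. Without IgG replicate 1 these medians were -0.44, 0.14 and -0.06. Then 8 of 8 were negative, against 42.0% of all genes and 54.1% of those above 0 in IgG replicate 1.

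No single fold change of the 8 passed the threshold. Their standard errors (SE) came from limma's trend across genes. In the order of role, NPM1 was at -1.58 (SE 1.13; limma adjusted p = 0.677) and NOLC1 by -0.43 (SE 1.58; limma adjusted p = 0.856) on the log2 scale. NOP56 had a log2 fold change of -0.86 (SE 1.42; limma adjusted p = 0.695) and NOP58 of -1.73 (SE 1.50; limma adjusted p = 0.677). DKC1 was at -1.41 (SE 1.42; limma adjusted p = 0.677), NHP2 at 0.76 (SE 1.29; limma adjusted p = 0.700), NOP10 at -0.25 (SE 1.41; limma adjusted p = 0.907) and GAR1 at -1.19 (SE 1.80; limma adjusted p = 0.682). NCL, described without a test, was at -2.26, and its own spread within groups was 1.66. Without IgG replicate 1 the values moved to -0.25 for NPM1, -0.11 for NOP58, -0.43 for DKC1, -0.41 for NHP2 and -0.89 for NCL, and were -0.46 for NOLC1, -0.71 for NOP56, -0.80 for NOP10 and -0.91 for GAR1. Without IgG replicate 2 they were -2.91 for NPM1, -3.34 for NOP58, -2.38 for DKC1, 1.92 for NHP2 and -3.62 for NCL, and NPM1, NOP58 and DKC1 then passed the threshold (limma adjusted p = 0.032, 0.0011 and 0.024), as did 7129 genes higher and 1032 genes lower of all tested. In that fit the lone IgG library is assumed to vary as the anti-PHGDH pair did. The sign of NHP2 was negative, and that of NOP10 positive, under some other scalings and without 1 library.

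Other genes of ribosome production were taken from lists drawn up by function, and none passed the threshold in either direction. In limma, 0 of 13 snoRNP assembly genes, 0 of 34 genes of the small-subunit processome, 0 of 37 large-subunit assembly genes and 0 of 11 genes of RNA polymerase I and its factors had an adjusted or an unadjusted p under 0.05. In edgeR 1 of these, ZNHIT6 of the snoRNP assembly list, was lower at an unadjusted p under 0.05. Their median log2 fold changes were 2.20, 1.13, 1.55 and 1.53, against 1.92 for all genes, and 7, 16, 13 and 5 of them were at 0 in IgG replicate 1 (61.9% of all genes tested were). Without that library the medians were -0.27, -0.15, -0.20 and -0.17. Both anti-PHGDH libraries were below IgG replicate 2 for 6 of 13 (46.2%), 15 of 34 (44.1%), 16 of 37 (43.2%) and 4 of 11 (36.4%), against the 25.1% of all genes. The share was 42.7% among genes with a mean at least that of GAR1, a bound not applied to these lists. The excess over 25.1% is thus not read as a trait of the lists.

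ZNHIT6, an assembly factor of box C/D snoRNPs, had the lowest fold change of its list, -3.31 on the log2 scale (SE 1.83; limma adjusted p = 0.677). It stood at 14.9 and 32.1 CPM in the anti-PHGDH pair and at 1587 and 31.7 CPM in the IgG pair, so IgG replicate 1 was 49.5 times the highest other library and the groups overlap. Without IgG replicate 1 its fold change was -0.51. SNU13, the RNA-binding protein that starts C/D assembly on the snoRNA, stood at 324 and 516 CPM in the anti-PHGDH pair and at 585 and 733 CPM in the IgG pair, without overlap (log2 fold change -0.68; limma adjusted p = 0.725; -0.84 without IgG replicate 1). RUVBL1, an ATPase of the assembly complex, had a value of 0.04, and of -0.77 without IgG replicate 1. The highest values of that list, 3.39 for PIH1D1, 3.35 for TCOF1 and 2.58 for COIL, belonged to genes at 0 in IgG replicate 1, and without that library they were -0.22, -0.27 and -0.31.

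In the longer lists, too, the genes with the highest fold changes had 0 or 1 read in IgG replicate 1, and those with the lowest had their highest level there, except NOP14 and TAF1D. Of the large-subunit factors, 9 of 37 were at least 2 times as high in IgG replicate 1 as in any other library. The same held for 12.3% of all genes tested and 32.2% of those above 0 in IgG replicate 1. Among the 9 were the GTPase GTPBP4 (58.2 and 113 CPM against 1178 and 148 CPM), NIFK (24.7 and 18.1 against 496 and 24.1 CPM) and RRS1 (9.80 and 19.7 against 166 and 14.6 CPM). Their log2 fold changes were -2.35, -2.33 and -1.77, and -0.86, -0.18 and -0.06 without IgG replicate 1. RRP1B, NLE1 and DDX56 had the highest values, 3.84, 3.73 and 3.54, with 0, 0 and 1 read in IgG replicate 1, and 0.58, 0.77 and 0.35 without it. In the list of the small-subunit processome, the complex that folds and cuts the early pre-ribosomal RNA, WDR75 (-2.05), NOP14 (-1.35) and PWP2 (-1.04) were lowest, and DCAF13 (3.13), the RNA acetyltransferase NAT10 (2.81) and UTP4 (2.73) highest. Without IgG replicate 1 the values were -0.06 for WDR75, -1.34 for NOP14, 0.09 for PWP2, 0.20 for DCAF13 and 0.01 for NAT10. UTP4 kept a value of 1.82 without IgG replicate 1, at 22.0 and 5.75 CPM against 2.53 CPM in IgG replicate 2. Among the polymerase genes, POLR1F (-1.69), TAF1B (-1.10) and TAF1D (-0.57) were lowest and the polymerase subunits POLR1D (3.46) and POLR1A (2.83) and the termination factor TTF1 (2.39) highest. Without IgG replicate 1 these were -0.73, -0.45 and -0.90, and 0.05, 0.79 and -0.14.

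**Figure D3:**
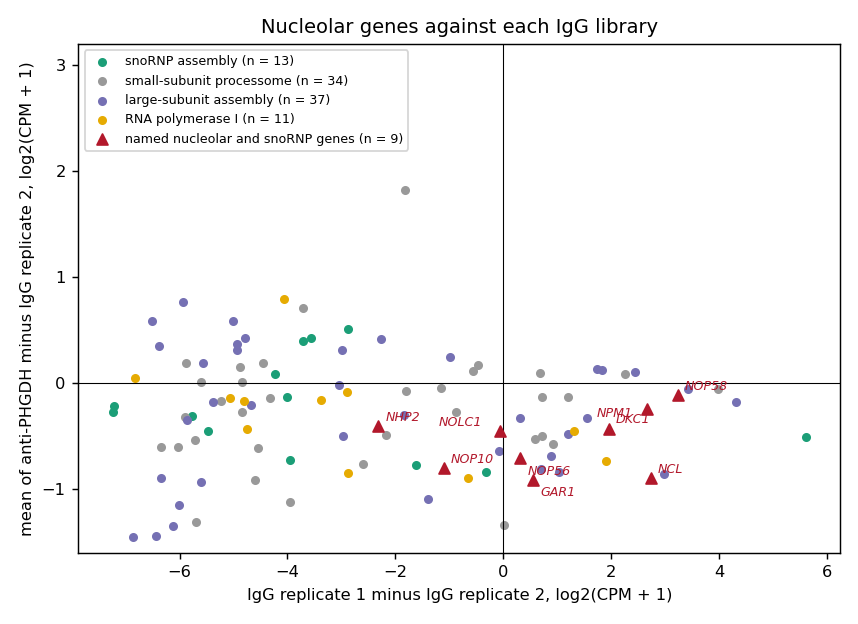
Each point is a gene, placed by IgG replicate 1 minus IgG replicate 2 (horizontal axis) and by the mean of the anti-PHGDH libraries minus IgG replicate 2 (vertical axis), both on the log2(CPM + 1) scale, with colours for the lists. All 9 tested nucleolar and snoRNP genes lie below 0 on the vertical axis (from -0.91 for GAR1 to -0.11 for NOP58) and on both sides of 0 on the horizontal axis.

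The genes whose profile over the 4 libraries was nearest to that of NCL, by Euclidean distance on log2(CPM + 1), did not include the other snoRNP genes. NAP1L1, a histone chaperone, was nearest (distance 0.88, 280 and 620 CPM in the anti-PHGDH pair, 6268 and 590 CPM in the IgG pair). It was followed by PTGES3 (1.03), a co-chaperone of HSP90, TPT1 (1.03), NDUFA12 (1.13), a subunit of respiratory complex I, and PSMA2 (1.18), a proteasome subunit. NPM1 ranked 76th and DKC1 124th of 9523 genes, and GAR1, the farthest of the 9, ranked 954th. The distance follows level as well as pattern, and 4 points per gene allow no test.

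The intron-encoded snoRNAs and the close relatives of these genes carried few reads, with the exception of NPM3. Of 14 snoRNAs listed as lying in introns of NCL, NOP56, NOP58 and DKC1, 7 were above 0 in at least 1 library and none passed 1.64 CPM (5 reads at most), and all were at 0 in IgG replicate 1. They were SNORD56, SNORD57, SNORD110, SNORA51, SNORD11, SNORD11B and SNORD70B. The pseudogenes listed under the names of NCL and NOP56 had at most 3 reads in a library, and FBLL1, the paralog of FBL, at most 1 read. NPM3, a paralog of NPM1, stood at 282 and 427 CPM in the anti-PHGDH pair and at 2.06 and 623 CPM in the IgG pair, so that IgG replicate 1 was its low library while it was the high library of NPM1. In limma NPM3 had a log2 fold change of 2.99 (adjusted p = 0.677, SE 1.65), which turned to -0.84 once IgG replicate 1 was left out. ZNHIT3, WDR46, NOC4L, DDX24, DDX51 and RRN3, which growing cells are known to use, were also listed at 0 in all 4 libraries.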

How the data were processed

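RNA from 2 anti-PHGDH and 2 IgG precipitates of HEK293T cells was sequenced in paired ends. The authors deposited 1 table of CPM values per library. Per the submitters' processing notes, STAR 2.5.4b, featureCounts and hg38 were used. The annotation, the use of strand and the handling of duplicates are not given in the sources used here. All but 7 of the 50227 deposited CPM values above 0 equalled a whole number of reads to within 0.00051 CPM (1 read being 0.258 to 0.822 CPM), from which reads per gene were recovered. A count of 0 allows 3 reads, 0.774 to 2.47 CPM. Of the symbols, 93.8% matched RefSeq.

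The fit was limma 3.58.1 (R 4.3.3) with a trend on log2(CPM + 1), two-sided, over genes that reached 5 CPM in 2 or more libraries, adjusted by Benjamini-Hochberg over all of them. The prior degrees of freedom were infinite. edgeR 4.0.16 and DESeq2 1.42.0 were run on recovered reads. Procedures were tested on simulated data whose mean levels were taken without IgG replicate 1, so that test does not cover a library like it. An exact permutation test of 2 against 2 cannot go below p = 0.333. Ratios carry exact conditional binomial (Clopper-Pearson) intervals at 95%.

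The members, lists and tests were chosen with earlier results of these data known. A marker gene of HEK293T is not reported here. Named from each further list were the 3 highest and 3 lowest fold changes. UTP4, NPM3 and the genes at 0 were singled out after their values were seen. Alternatives covered pseudocount, filter, scaling, trend, replicate block, count models, mitochondrial genes and leaving out each library.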

Additional observations from a re-analysis of the deposited data

How the results depend on the processing

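With 2 libraries per antibody, single libraries set much of the comparison: the median over the 9 genes (-1.19, NCL included) was -0.46 without IgG replicate 1 and -0.41 without anti-PHGDH replicate 1. Few reads limit FBL and the snoRNAs, and the cause was not tested. The number of genes called higher (1 as reported) rose to 11 when 0.1 was added in place of 1, to 3 when 1 CPM sufficed, to 6 over all genes, to 3 under a robust trend and to 4 with the replicate block. It dropped to 0 after centring on library medians, with no trend, with DESeq2 and in both edgeR models (plain, or with the replicate block). Leaving out 1 library gave 0 to 7129 genes higher and 0 to 1032 lower, with 99 and 3 without IgG replicate 1. No setting that kept all 4 libraries called a gene lower. The median over the 9 was -3.69 after centring and ran from -1.69 to -0.41 without 1 library. Its distance from the median of all genes (-3.11) was -4.59 and -2.13 at pseudocounts of 0.1 and 5, -1.91 without a filter, -0.88 after quantile normalization, -2.13 by edgeR (-4.55 once the replicate block was added) and -2.26 by DESeq2, and ran from -5.06 to -0.59 without 1 library. The count of genes with no overlap, lower with anti-PHGDH (5), was 9 after centring and 3 after quantile normalization, and ran from 5 to 8 without 1 library. The count below IgG replicate 2 (7) ran from 6 to 9. The sign turned for NHP2 after centring (-1.74) and for NOP10 after quantile normalization (0.27) and without mitochondrial genes (0.01). Without 1 library NHP2 ran from -0.41 to 1.92 and NOP10 from -0.80 to 0.30. The other 7 genes stayed negative in all 19 alternatives, among them NCL, which was chosen for its lower value. All alternatives draw on the same 4 libraries. The cause of the shifts between settings was not tested. The correlation across genes of the replicate 1 minus 2 difference between the antibodies was 0.006, and 0.164 among genes above 0 in IgG replicate 1. With 2 pairs and no label tying the numbers, they were not taken to pair the libraries.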
